A study of Homo sapiens with 60 samples.

Results

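The heat shock proteins of the cytosol and the mitochondrion were followed through 10 genes, HSPA1A, HSPA1B, HSPA8, HSPH1, DNAJB1, BAG3, HSP90AA1, HSPB1, HSPD1 and HSPE1, chosen by symbol out of 60675 genes listed in an expected-count table. The RNA came from A549, a human line established from an adenocarcinoma of the lung. All 10 passed the filter on low counts that left 17368 genes for testing. The table holds 60 libraries in 20 groups of 3, all collected at 24 h. The groups were Vehicle (0.1% dimethyl sulfoxide per the sample labels, although the design text of the series gives another level), Wortmannin (10 µM, an inhibitor of phosphoinositide 3-kinases used as positive control), and herbal water extracts, each given at 20, 100 and 500 µg/mL. The 6 herbs are Aucklandiae Radix, Polygalae Radix, Zizyphi Semen, Longan Arillus, Schisandrae Fructus and Liriopis seu Ophiopogonis Tuber, and each is called by the opening word of its name, followed by the dose. Doses are those of the labels, while the design text says that weaker dilutions replaced them for toxic extracts. The labels of treated groups name no solvent level, so the solvent and the treatment cannot be told apart against Vehicle. The cells of every group grew in medium with serum and antibiotics, and the labels do not say whether the 3 replicates of a group were cultured apart. The p-values then describe only the spread between these libraries, which may be technical.

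Heat shock proteins are chaperones that bind unfolded proteins and help them fold, keep them from clumping or pass them on for degradation. Heat, proteotoxic drugs, heavy metals and oxidative damage release heat shock factor 1 (HSF1) from repression, and the freed factor binds heat shock elements, short repeats of nGAAn in alternating orientation, in the promoters of its targets. HSPA1A and HSPA1B encode the strongly inducible HSP70, HSPA8 the constitutive HSC70, DNAJB1 an HSP40 that hands clients to HSP70, and HSPH1 and BAG3 factors that exchange its nucleotide. HSP90AA1 encodes the inducible cytosolic HSP90, HSPB1 a small heat shock protein that holds unfolded clients, and HSPD1 and HSPE1 the chaperonin HSP60 and its lid HSP10, which fold proteins inside mitochondria.

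Libraries held 17.7 to 30.6 M counts (M is mega; median 24.6 M). Keratin genes of the A549 epithelium were abundant, with KRT8 at 2919 to 4126 CPM (counts per M counts of the library). Markers of endothelium and blood were at or near 0. The marker values use unscaled library totals, while all other CPM values use a library size scaled by TMM. PTPRC, HBB and CD3E of blood and VWF of endothelium had a median of 0 CPM, and LYZ of blood (up to 1.66 CPM), PECAM1 and CDH5 of endothelium had medians of 0.040, 0.040 and 0.094 CPM. Of the fibroblast genes, COL1A1 (median 29.0 CPM), COL3A1 (5.33 CPM) and LUM (0.51 CPM) had counts in all 60 libraries, while COL1A2 and DCN had a median of 0. Library names fall into 5 sets by their first part, which are nested in the treatments. Set A1 is Vehicle and set 1 is Wortmannin. Set 2 holds both Schisandrae and Liriopis, set 3 both Zizyphi and Longan, and set 4 both Aucklandiae and Polygalae. A library set and a treatment therefore cannot be told apart in any comparison with Vehicle, and all 19 such comparisons share the same 3 Vehicle libraries.

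The promoter sequences below show where heat shock element units lie next to these genes. They come from RefSeq on build GRCh38.p14, are written 5′ to 3′ on the gene's strand, and carry the units in capitals. HSPA1A and HSPA1B are neighbours on chromosome 6 and are given to show how alike they are: over the 121 bases printed for each, 4 bases differ.
HSPA1A: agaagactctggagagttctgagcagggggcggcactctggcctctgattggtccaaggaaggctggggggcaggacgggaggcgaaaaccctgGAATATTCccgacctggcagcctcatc
HSPA1B: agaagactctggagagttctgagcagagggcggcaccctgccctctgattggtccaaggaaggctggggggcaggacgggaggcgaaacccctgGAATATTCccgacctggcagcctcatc
DNAJB1: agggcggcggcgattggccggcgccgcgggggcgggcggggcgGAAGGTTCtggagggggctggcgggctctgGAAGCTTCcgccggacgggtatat
HSPB1: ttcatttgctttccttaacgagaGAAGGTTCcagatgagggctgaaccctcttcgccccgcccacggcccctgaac
HSPA8: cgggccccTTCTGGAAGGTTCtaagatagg
HSP90AA1: tcTTCCGGAAGGTTCgggaggcTTCTGGAA
HSPD1: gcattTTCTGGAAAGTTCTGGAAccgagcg

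The HSPA1A stretch is chr6:31815343-31815463 on the plus strand, bases 200 to 80 before the annotated start, and the HSPA1B stretch is chr6:31827539-31827659, bases 199 to 79 before its start. Both lie outside any annotated gene of GENCODE release 29. The DNAJB1 stretch, chr19:14518421-14518517 on the minus strand, lies in introns of longer DNAJB1 transcripts and of TECR. The HSPB1 stretch, chr7:76302468-76302543 on the plus strand, is intergenic. The HSPA8 stretch (chr11:123062170-123062199), the HSP90AA1 stretch (chr14:102087105-102087134) and the HSPD1 stretch (chr2:197500061-197500090), all on the minus strand, lie before the RefSeq start used but within exons of other annotated transcripts, in the case of HSPD1 also within an exon of HSPE1.

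A pair of units (GAANNTTC or TTCNNGAA, read on both strands) was found in 13.5% of 35116 RefSeq promoter windows of 300 bases, and in at least 1 window of 7 of the 10 members. A run of 3 units was found in 0.490% of windows and in those of 3 members, HSPA8, HSP90AA1 and HSPD1; each run of 3 also contains pairs. The letters were not found in the windows of HSPH1, BAG3 and HSPE1. These matches describe the sequence only, since binding of a factor was not measured.

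HSPA1A and HSPA1B also share their coding sequence almost wholly. Over 1926 coding bases, 4 differ (99.8% identity), and over 641 residues 0 differ, so most reads fit both genes and were divided between them by the authors' estimate. Their sum is therefore given beside the single values. HSPD1 and HSPE1 lie head to head on chromosome 2 and overlap, and a readthrough transcript of HSPE1 shares its exons, so a part of their counts may also be divided.

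Per kilobase of exon, HSP90AA1 was the most abundant member at a mean of 506 CPM per kb over the 60 libraries. HSPA8 followed at 413, HSPD1 at 273 and HSPB1 at 229 CPM per kb. The inducible HSP70 genes stood lower, HSPA1A at 130 and HSPA1B at 90.0 CPM per kb, with HSPE1 at 110 between them. The co-chaperones were the least abundant on this scale, DNAJB1 at 45.1, BAG3 at 40.4 and HSPH1 at 26.3 CPM per kb. This order depends on the annotated exon length. Before division HSPH1 (8390 bases) had a mean of 221 CPM, near the 227 CPM of HSPA1B (2521 bases). HSPA1B and HSPA1A varied most between libraries, by 2.05-fold and 2.03-fold from the lowest to the highest, and HSPA8 least, by 1.27-fold.

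The question of each comparison with Vehicle was which genes an extract or wortmannin changed. Of 190 comparisons of a member with Vehicle, 12 passed an adjusted p of 0.05 in edgeR's quasi-likelihood test, 6 as rises and 6 as falls, and they lay in 6 of the 19 treated groups. The falls were those of HSP90AA1, HSPD1 and HSPE1 under Wortmannin, of HSP90AA1 and HSPB1 in Polygalae 500, and of HSPB1 in Aucklandiae 20. The rises were those of HSPA1B and DNAJB1 in Schisandrae 100, of HSPA1B, DNAJB1 and BAG3 in Schisandrae 20, and of HSPE1 in Polygalae 20. HSPA1A, HSPA8 and HSPH1 passed in none of the 19 comparisons in this test. The 20 group means of each member were also put in order. For HSPA1A, HSPA1B, HSPA8, HSPH1, DNAJB1 and BAG3, 0 of 19 neighbouring pairs lay further apart than the larger SD of the pair. The count was 1 for HSPD1, and 2 each for HSP90AA1, HSPB1 and HSPE1. Ordering makes such gaps small, so these counts do not show that the groups were close. Group means of HSPA1A ran from 274 to 416 CPM. The highest group mean was that of Schisandrae 20 for 7 members (HSPA1A, HSPA1B, HSPA8, HSPH1, DNAJB1, HSPB1 and BAG3). The share of all tested genes that were highest in that group was not computed, and these members do not vary independently, as described below.

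**Figure D1:**
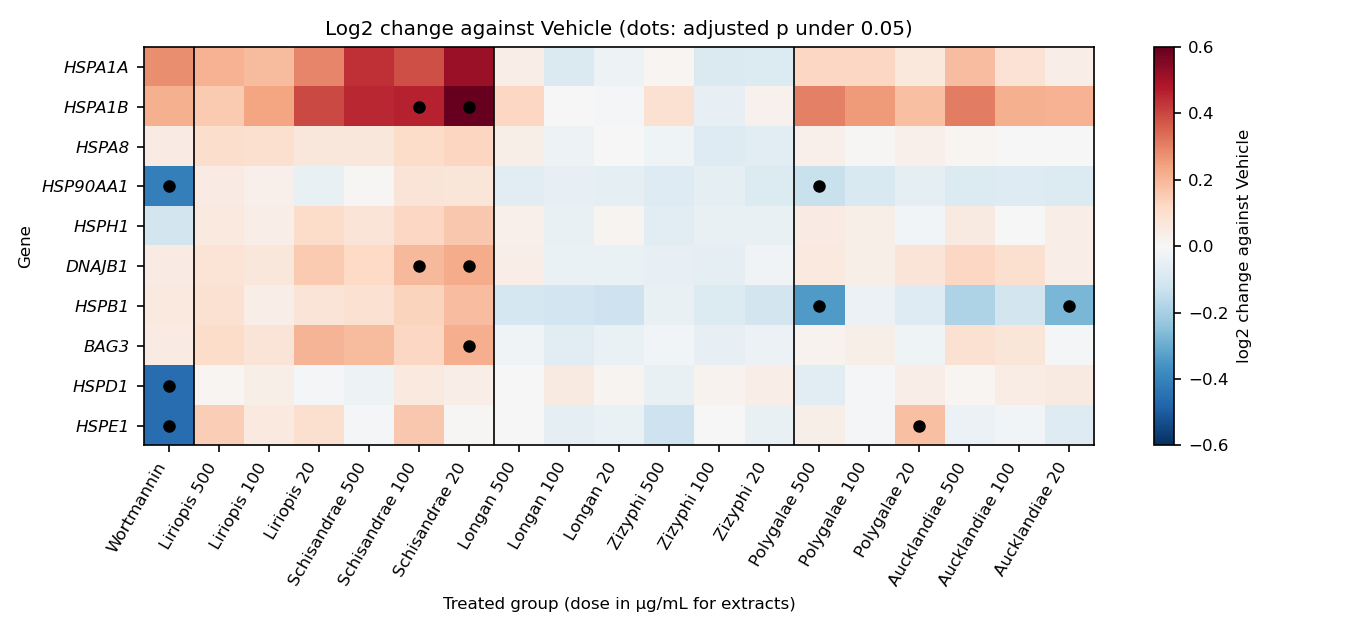
Log2 change of each member (rows) in each treated group (columns, dose in µg/mL) against Vehicle, 3 libraries a group; vertical lines part the library sets and dots mark an adjusted p under 0.05. The 12 dots include 3 falls under Wortmannin and 5 rises in Schisandrae 20 and 100.

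The mitochondrial chaperonin and cytosolic HSP90 were lower in Wortmannin than in Vehicle. HSPD1 stood at 852, 844 and 853 CPM in the 3 Wortmannin libraries and at 1169, 1145 and 1182 CPM in the 3 Vehicle libraries. The groups did not overlap, and all of the other 57 libraries of the series were above Wortmannin, the lowest of them at 1072 CPM. The change was −0.46 ± 0.038 (log2 ± SE), 27.1% lower, with an adjusted p of 2.44e-15. HSPE1, the partner of HSPD1, was at 164, 150 and 161 CPM against 208, 219 and 226 CPM in Vehicle.

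HSPE1 had the same size of change, −0.46 ± 0.057 (adjusted p = 5.12e-09), and its 3 Wortmannin libraries were below all 57 others. HSP90AA1 was at 2054, 2070 and 2097 CPM against 2733, 2779 and 2750 CPM in Vehicle, again without overlap and below every one of the 57. Its change was −0.41 ± 0.045, 24.7% lower (adjusted p = 5.09e-11). The share of all genes whose groups did not overlap, here and elsewhere, was not computed. Nor was the share with Wortmannin below every other library. RNA of whole cultures was measured, in which fewer cells of a kind and less RNA per cell cannot be told apart.

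These 3 falls held in 6 of 6 fits that left out 1 library. Such changes were common under Wortmannin: 3 of 10 members passed, all as falls, where 37.4% of all tested genes passed and 19.4% fell. The other members stayed short of the threshold under Wortmannin. HSPA1A was at 366, 344 and 350 CPM, above the Vehicle range of 286 to 298 CPM, with a log2 difference of 0.28 ± 0.13 (adjusted p = 0.0851). HSPH1 was at 203, 196 and 203 CPM, with a log2 difference of −0.11 ± 0.048 (adjusted p = 0.0628). HSPA1B, HSPA8, DNAJB1, BAG3 and HSPB1 had log2 differences of 0.05 to 0.21. So the chaperonin genes fell, while the inducible HSP70 genes lay above Vehicle by differences that did not pass. Group means of HSPA1A and HSPA1B were also above the Vehicle mean in 6 of 6 groups of set 2 and 6 of 6 of set 4.

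**Figure D2:**
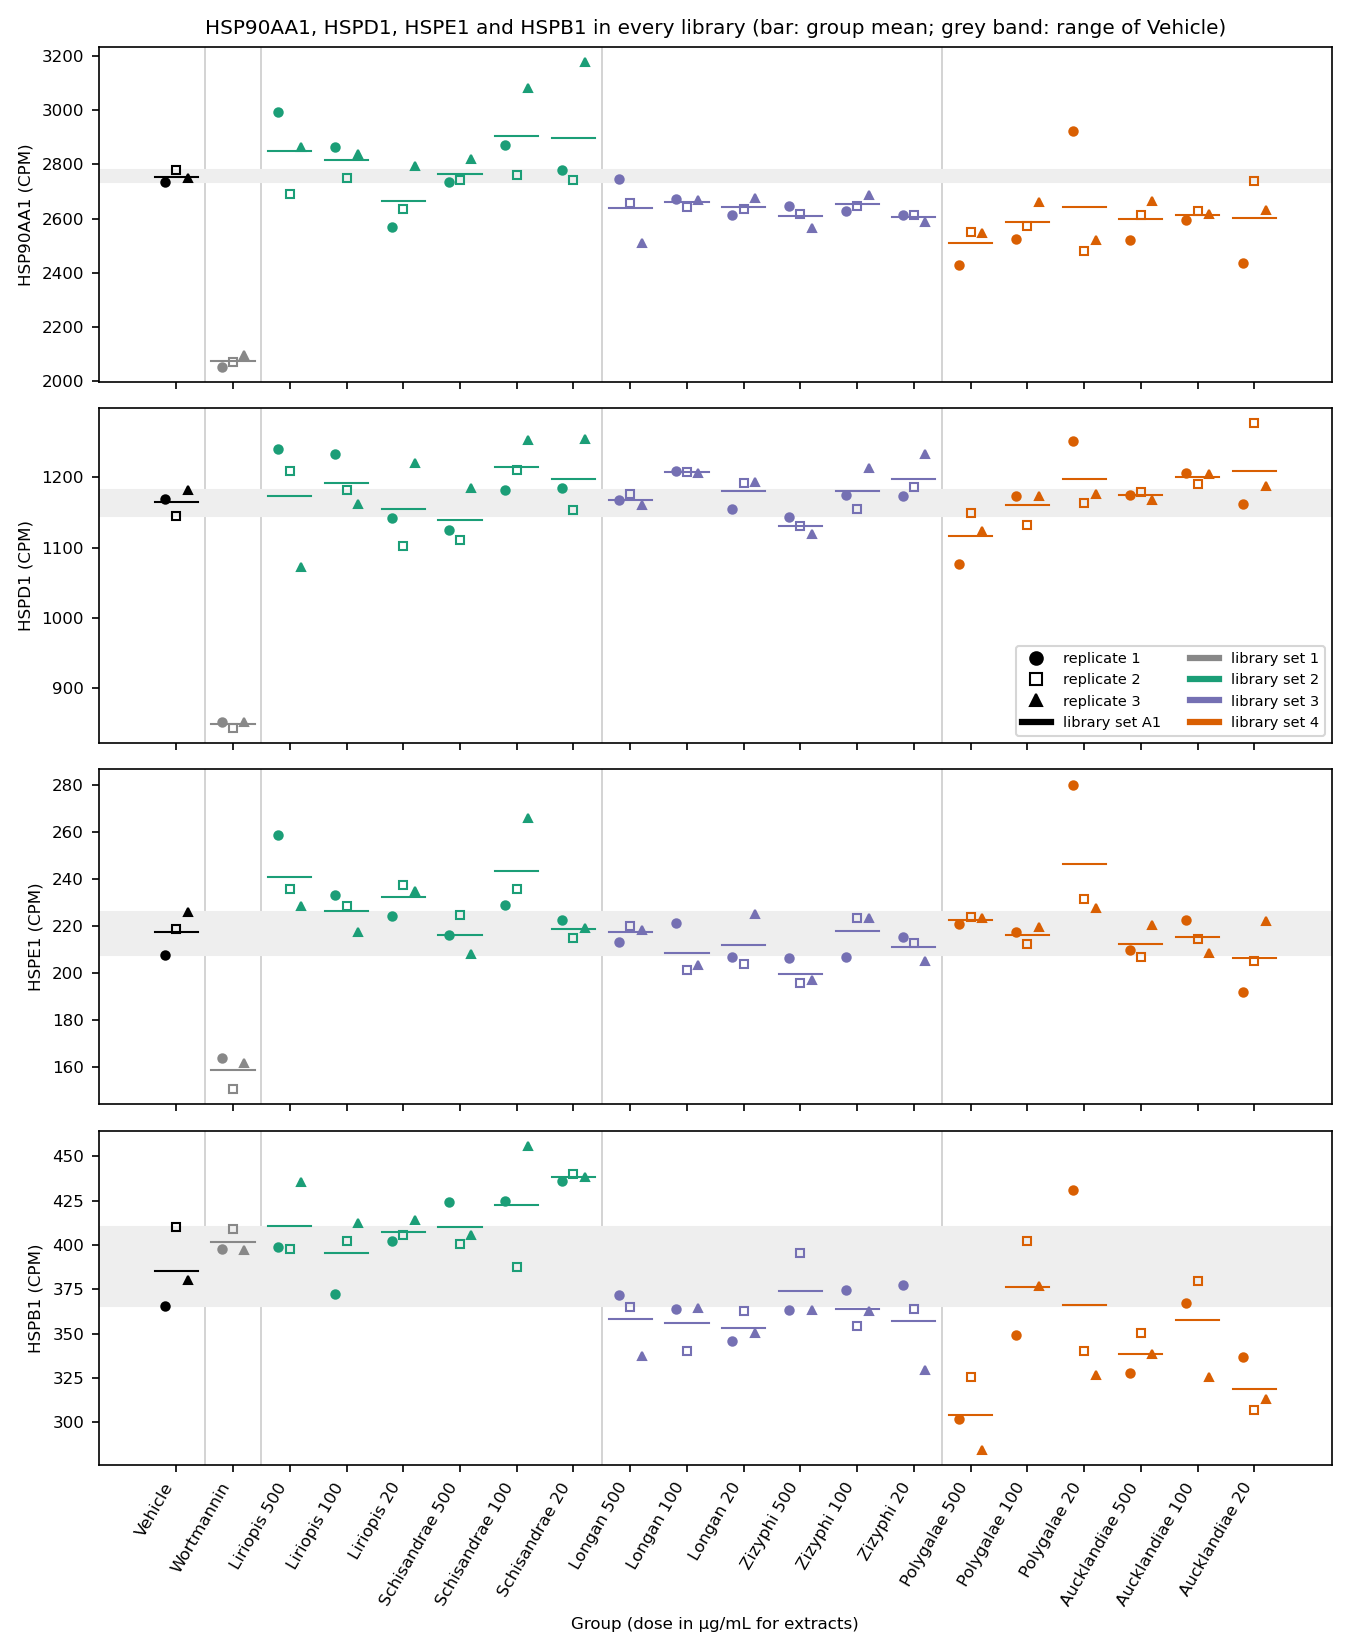
Level in CPM of HSP90AA1, HSPD1, HSPE1 and HSPB1 in all 60 libraries by group; points are libraries shaped by replicate number and coloured by library set, bars are group means and the grey band spans the 3 Vehicle libraries. Wortmannin lies below all other libraries for the upper 3 genes but not for HSPB1, and Polygalae 20 replicate 1 lies apart for HSPE1 (280 CPM) and HSPB1 (431 CPM).

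The inducible HSP70 genes were highest under Schisandrae. HSPA1A was at 353, 385 and 511 CPM in Schisandrae 20, at 337, 371 and 431 CPM in Schisandrae 100 and at 362, 391 and 428 CPM in Schisandrae 500, and all 9 libraries were above the Vehicle range of 286 to 298 CPM. The log2 differences were 0.52 ± 0.13, 0.38 ± 0.13 and 0.44 ± 0.13, and none passed (adjusted p = 0.0692, 0.106 and 0.134). The first of these lay near the threshold and passed in DESeq2 (0.52, adjusted p = 0.0167) and in edgeR without Schisandrae 20 replicate 1 (0.62, adjusted p = 0.0318). HSPA1B was at 256, 283 and 346 CPM in Schisandrae 20, without overlap with the 203, 182 and 199 CPM of Vehicle. It rose by 0.60 ± 0.12 on the log2 scale, 51.2% higher (adjusted p = 0.0214).

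In Schisandrae 100 HSPA1B was at 243, 248 and 313 CPM and rose by 0.46 ± 0.12 (adjusted p = 0.0369). In Schisandrae 500 it was at 241, 258 and 302 CPM, with a difference of 0.45 ± 0.12 that did not pass (adjusted p = 0.0653). The sum of both genes was 711 ± 130 CPM (SD, n = 3) in Schisandrae 20 against 486 ± 13.1 CPM (n = 3) in Vehicle, and as 1 gene it rose in that group by 0.55 (adjusted p = 0.0353) but did not pass in the other Schisandrae groups.

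DNAJB1 and BAG3 moved with them. DNAJB1 was at 175, 184 and 197 CPM in Schisandrae 20 and at 174, 177 and 194 CPM in Schisandrae 100, all above the Vehicle libraries at 163, 154 and 160 CPM. It rose by 0.22 ± 0.046 (adjusted p = 0.0214) and by 0.19 ± 0.046 (adjusted p = 0.0195). BAG3 was at 122, 125 and 126 CPM in Schisandrae 20 against 106, 110 and 106 CPM in Vehicle and rose by 0.22 ± 0.049 (adjusted p = 0.0354). HSPH1 (229, 240 and 259 CPM, log2 difference 0.16 ± 0.048) and HSPA8 (2036, 2119 and 2289 CPM, log2 difference 0.13 ± 0.050) were also above all Vehicle libraries in Schisandrae 20, but neither passed (adjusted p = 0.143 and 0.292).

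So 3 of 10 members rose in Schisandrae 20, where 0.196% of all tested genes changed and 0.161% rose (DESeq2 called 4, HSPA1A added), and 2 of 10 rose in Schisandrae 100, where 1.4% changed and 0.921% rose. In Schisandrae 500, 0 of 10 passed in edgeR (4 at an unadjusted p under 0.05), 2 passed in DESeq2 (HSPA1B and BAG3), and 0.478% of all genes changed. The calls did not hold when most single libraries were left out. The count of all genes that passed moved in these fits too. For Schisandrae 20 it went from 34 to between 0 (without replicate 2) and 75 (without replicate 1). For Schisandrae 100 it went from 244 to between 0 (without replicate 3) and 605 (without replicate 2). Without Schisandrae 20 replicate 2 or 3, or without any of Vehicle replicates 1, 2 and 3, the calls of Schisandrae 20 were lost at log2 values of 0.47 to 0.63 for HSPA1B, 0.18 to 0.24 for DNAJB1 and 0.20 to 0.23 for BAG3 (adjusted p of 0.0670 to 0.227). Without Schisandrae 100 replicate 3 or any of the 3 Vehicle replicates, those of Schisandrae 100 were lost at 0.33 to 0.49 for HSPA1B and 0.14 to 0.21 for DNAJB1 (adjusted p of 0.0631 to 0.420).

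Liriopis libraries share a set with Schisandrae, and the Liriopis group means of HSPA1A and HSPA1B lay between those of Vehicle and Schisandrae. For other members these extracts overlapped. The BAG3 mean was 123 CPM in Liriopis 20, against 122 CPM in Schisandrae 500 and 117 CPM in Schisandrae 100. For DNAJB1 it was 177 CPM in Liriopis 20 and 172 CPM in Schisandrae 500, and for HSPA8 2112 CPM in Liriopis 500 and 2057 CPM in Schisandrae 500. In Liriopis 20 HSPA1B was at 235, 243 and 291 CPM, above all Vehicle libraries, with a log2 difference of 0.40 ± 0.12 (adjusted p = 0.220), and BAG3 was at 116, 127 and 126 CPM, with 0.20 ± 0.050 (adjusted p = 0.0777). In edgeR 0 of 10 members passed in Liriopis 20, 100 and 500 (5, 0 and 3 at an unadjusted p under 0.05), and 0 in DESeq2, where 0.0864%, 0.00576% and 0.00576% of all genes passed. Over the 18 libraries of set 2, 16 were above all Vehicle libraries for HSPA1A, 17 for HSPA1B, 16 for DNAJB1, 16 for BAG3, 15 for HSPA8 and 13 for HSPH1, but 11 for HSPD1 and 10 each for HSP90AA1 and HSPE1. Over the 18 libraries of set 4 (Aucklandiae and Polygalae), 16 were above all Vehicle libraries for HSPA1B, 14 for DNAJB1 and 13 for HSPA1A. Counts there were lower for BAG3 and HSPH1 (8 each) and for HSPA8 (7). Group means of HSPA1A, HSPA1B and DNAJB1 were above the Vehicle mean in 6 of 6 groups of set 4. Counts of libraries over an extract or a set, here and elsewhere, describe the libraries and are not counts of independent samples. For HSPA1A, HSPA1B, HSPA8, HSPH1, DNAJB1 and BAG3, libraries of a set varied largely together by replicate number, as described below. The matching share over all genes was not computed.

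Among the extracts, Longan and Zizyphi had the lowest group means of HSPA1A and HSPA1B, which lay around the Vehicle means. HSPA1A ran from 251 to 322 CPM over the 18 libraries of set 3, with 3 above and 10 below all Vehicle libraries, and HSPA1B from 169 to 228 CPM, with 8 above and 4 below. Group means of HSPA1A lay between 274 and 299 CPM, 2 of 6 of them above the Vehicle mean of 291 ± 6.31 CPM (SD, n = 3). Those of HSPA1B lay between 188 and 212 CPM, 3 of 6 of them above the Vehicle mean of 195 ± 11.2 CPM (SD, n = 3). In edgeR 0 of 10 members passed in Longan 20, 100 and 500, where 0.0173%, 0.132% and 0.104% of all genes did, with 0 at an unadjusted p under 0.05. In Zizyphi 20, 100 and 500 0 of 10 passed as well (0, 0 and 1 unadjusted), where 0.363%, 0.599% and 1.81% of all genes did, and DESeq2 called 0 in these 6 groups. The 1 member with an unadjusted p under 0.05 was HSPE1, at 206, 196 and 197 CPM in Zizyphi 500.

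**Figure D3:**
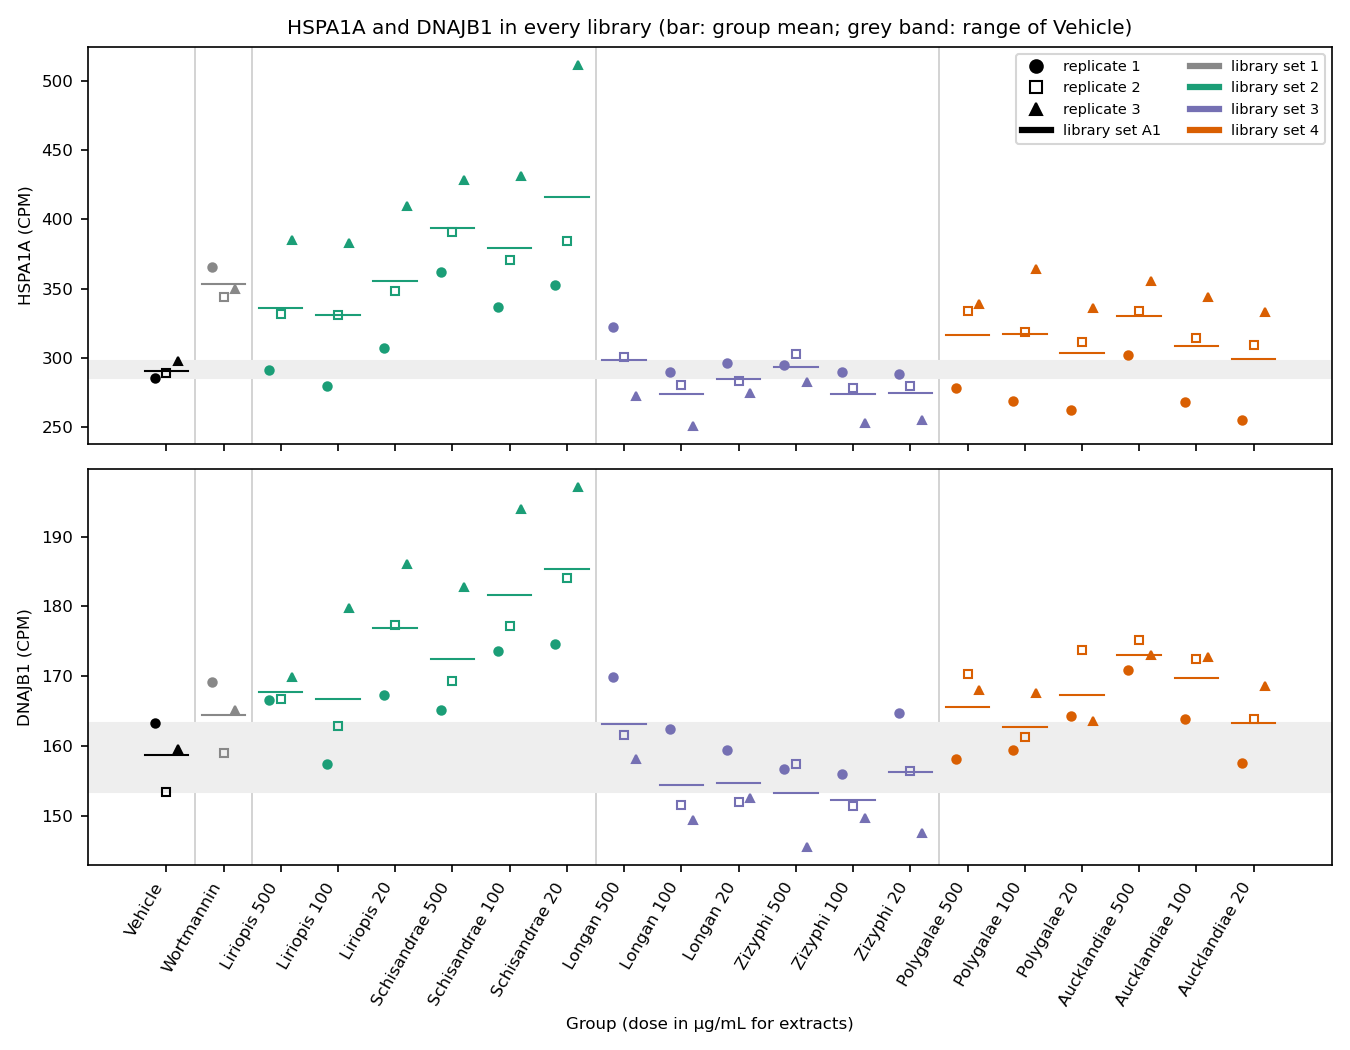
Level in CPM of HSPA1A and of its HSP40 partner DNAJB1 in all 60 libraries by group; points are libraries shaped by replicate number and coloured by library set, bars are group means and the grey band spans the 3 Vehicle libraries. Schisandrae holds the highest points (511 CPM for HSPA1A), set 3 the lowest, and triangles (replicate 3) stand highest in sets 2 and 4 for HSPA1A but lowest in set 3.

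HSPB1, the small heat shock protein, fell in Polygalae 500 and Aucklandiae 20. In Polygalae 500 it was at 302, 326 and 284 CPM against 365, 410 and 380 CPM in Vehicle, without overlap, and it fell by 0.34 ± 0.070 on the log2 scale, 21.1% lower (adjusted p = 0.000262). That fall passed in 6 of 6 fits without 1 library. In Aucklandiae 20 it was at 337, 307 and 313 CPM and fell by 0.27 ± 0.070 (adjusted p = 0.0227). That call was lost without Aucklandiae 20 replicate 2 or 3 or Vehicle replicate 2, at −0.23 to −0.26 (adjusted p of 0.0893 to 0.173).

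Over the 18 libraries of set 4, 13 were below all Vehicle libraries for HSPB1, as were 14 of 18 in set 3 and 0 of 18 in set 2. Its group means did not run in the order of the doses: Polygalae 100 was at 349, 402 and 377 CPM, and Aucklandiae 500 at 328, 350 and 338 CPM, with a log2 difference of −0.19 from Vehicle that did not pass.

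HSP90AA1 was at 2430, 2552 and 2548 CPM in Polygalae 500, below all Vehicle libraries, and fell by 0.13 ± 0.045 (adjusted p = 0.0256). Without Polygalae 500 replicate 1 the value was −0.11 (adjusted p = 0.131), and the call was also lost without Vehicle replicate 2 or 3, at −0.13 for both (adjusted p = 0.0787 and 0.0567). Group means of HSP90AA1 were below the Vehicle mean in 6 of 6 groups of set 3 and 6 of 6 of set 4, and above it in 5 of 6 of set 2. With HSPB1 these are the 2 of 10 members that fell in Polygalae 500, where 19.9% of all genes changed and 9.48% fell. HSPA1B was at 228, 245 and 249 CPM there, above all Vehicle libraries, with a log2 difference of 0.30 ± 0.12 that missed the threshold in edgeR (adjusted p = 0.0628) and passed in DESeq2 (0.30, adjusted p = 0.0466).

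HSPE1 rose in Polygalae 20 by 0.18 ± 0.056 (adjusted p = 0.0275), the 1 of 10 members to pass there, where 12.1% of all genes did and 6.59% rose. Its libraries were at 280, 232 and 228 CPM against 208, 219 and 226 CPM in Vehicle, so replicate 1 alone was far above. Without that library the difference was 0.08 (adjusted p = 0.486), and without Vehicle replicate 1 or 2 it was 0.15 and 0.18 (adjusted p = 0.140 and 0.0629). Polygalae 20 replicate 1 also held the highest HSPB1 (431 CPM) and HSP90AA1 (2924 CPM) of set 4, and of all 60 libraries it differed most from the other replicates of its group over all genes, with a chi-square of 25.3 per degree of freedom against replicate 3. In Polygalae 100 0 of 10 members passed in edgeR (2 unadjusted, 0 in DESeq2), where 12.8% of all genes did. In Aucklandiae 20 1 of 10 fell, where 2.99% of all genes changed and 1.61% fell, and in Aucklandiae 100 and 500 0 of 10 (1 and 3 unadjusted, 0 in DESeq2), where 2.04% and 4.93% did.

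Comparisons that leave out Vehicle stay within a library set. The dose slope, the change of log2 expression per 5-fold step from 20 to 500 µg/mL over the 9 libraries of an extract, passed for 0 of 10 members in each of the 6 extracts in edgeR and in DESeq2, both fitted with no term for the replicate number. Slopes lay between −0.13 and 0.07 over the 60 tested, and 6 had an unadjusted p under 0.05. All genes passed at 0.0461% for Liriopis, 0.0403% for Schisandrae, 0.0345% for Longan, 0.351% for Zizyphi, 5.03% for Polygalae and 0.967% for Aucklandiae. The lowest slope was that of HSPB1 in Polygalae, −0.13 ± 0.058 (adjusted p = 0.239). HSPA1B had negative slopes in Liriopis (−0.12 ± 0.057) and Schisandrae (−0.07 ± 0.076) and positive ones in the other 4 extracts, of 0.03 to 0.07.

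Between extracts of a set at 500 µg/mL, 0 of 10 members passed in each of the 3 pairs in edgeR and in DESeq2, again with no term for the replicate number. All genes passed at 0.322% for Schisandrae minus Liriopis (2 members at an unadjusted p under 0.05), 0.213% for Zizyphi minus Longan (1 member) and 15.2% for Polygalae minus Aucklandiae (1 member). HSPA1A was at 362, 391 and 428 CPM in Schisandrae 500 and at 291, 332 and 385 CPM in Liriopis 500. The ranges overlap, yet the Schisandrae library was the higher at each replicate number, and the log2 difference was 0.23 ± 0.13 (adjusted p = 0.536). For HSPA1B it was 0.30 ± 0.12 (adjusted p = 0.320). Both calls depend on that choice of model, since both genes passed at a similar difference once replicate numbers within a set were blocked, an alternative chosen after seeing the data.

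The 3 replicates of a group differed in HSPA1A in an order that recurred across the treatments of a library set. In sets 2 and 4 replicate 3 was the highest library in 6 of 6 groups each and replicate 1 the lowest in 6 of 6, whereas in set 3 replicate 3 was the lowest in 6 of 6. The mean deviation from the group mean in set 2 was −0.19 for replicate 1, −0.02 for replicate 2 and 0.21 for replicate 3, on the log2 scale. In set 4 it was −0.19, 0.04 and 0.15, and in set 3 0.07, 0.02 and −0.09. What the replicate number of a library stands for (a culture, a plate or a preparation) is not given in the sources used here. The pattern was noticed in these values and is a description, with no test.

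Over the 54 libraries of sets 2, 3 and 4, library set and replicate number together, 9 combinations, took 93.5% of the variance of log2 HSPA1A within groups. This was the highest share of all 17368 tested genes. HSPA8 (88.1%), HSPA1B (88.1%) and HSPH1 (82.9%) came next, at ranks 2, 3 and 4, and DNAJB1 (80.1%) stood at rank 7. BAG3 had 58.6% (rank 61).

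The shares of the other members were lower. Those of HSP90AA1 and HSPB1 lay between the median and the 95th percentile of all genes, and those of HSPD1 and HSPE1 below the median. HSP90AA1 had 27.7%, HSPB1 25.2%, HSPD1 6.90% and HSPE1 4.15%, where the median of all genes was 17.0%, the 95th percentile 37.4% and the share of degrees of freedom 16.7%. Above 50% lay 6 of 10 members and 177 genes in all, 1.02% of those tested. The size of the variation differed between them, with a within-group SD of 0.17 on the log2 scale for HSPA1A, 0.15 for HSPA1B and 0.061 to 0.068 for HSPA8, HSPH1, DNAJB1 and BAG3. In Vehicle the 3 libraries of HSPA1A lay within 286 to 298 CPM.

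**Figure D4:**
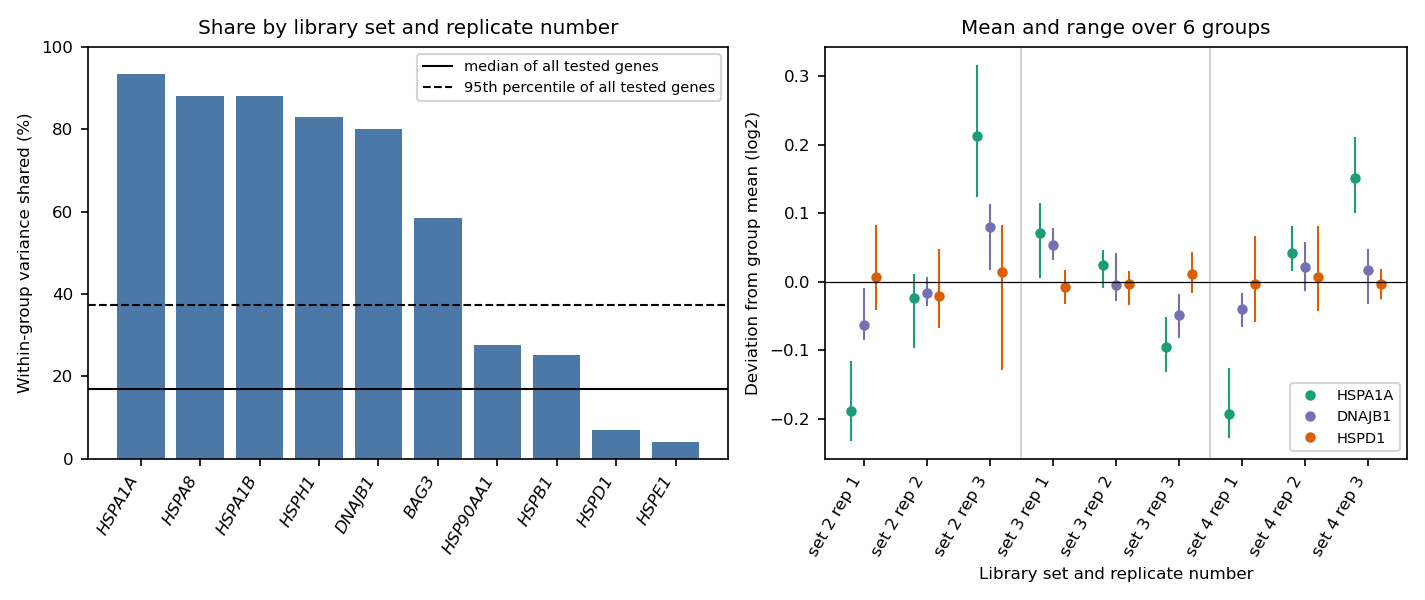
Left, percent of the within-group variance of log2 expression shared by library set and replicate number for each member, over 54 libraries, with the median (17.0%) and 95th percentile (37.4%) of all tested genes as lines. Right, deviation of each replicate number from its group mean in sets 2, 3 and 4 for HSPA1A, DNAJB1 and HSPD1, as the mean (point) and range (line) over 6 groups. HSPA1A and DNAJB1 move together between replicate numbers in sets 2 and 3, and HSPD1 stays around 0. In set 4 both are lowest in replicate 1, but from replicate 2 to 3 HSPA1A goes from 0.04 to 0.15 and DNAJB1 stays at 0.02.

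Correlations between members are given as a description, because groups share library sets. Among HSPA1A, HSPA1B, HSPA8, HSPH1, DNAJB1 and BAG3, group means of log2 CPM over 20 groups had a Pearson r of 0.68 to 0.93 (median 0.81 over 15 pairs). Deviations within groups over 60 libraries had an r of 0.59 to 0.91 (median 0.79). After the means of each set and replicate number were taken out, over only the 54 libraries of sets 2, 3 and 4, the median was 0.16. HSP90AA1, HSPD1 and HSPE1 had an r of 0.79 to 0.84 over 20 groups and of 0.15 to 0.48 without Wortmannin, so most of that likeness came with 1 group. Pairs of 1 of these 3 genes with 1 of the former 6 had a median r of 0.22 over 20 groups (18 pairs, −0.22 to 0.67) and of 0.41 without Wortmannin (−0.11 to 0.72). Without Wortmannin HSP90AA1 had a higher r with HSPB1 (0.86), HSPA8 (0.72) and HSPA1A (0.63) than with HSPE1 (0.48) or HSPD1 (0.34). Its r with HSPA1B (0.41) lay between those with HSPE1 and HSPD1. So HSP90AA1 did not stand apart from HSPA8 and HSPA1A over the other 19 groups.

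The genes outside the members whose group means were most like a member, of 9513 with a mean of at least 10 CPM, were as follows. JMJD6, which encodes a nuclear oxygenase, was the nearest to HSPA1A (r = 0.80 over 20 groups), HSPA8 (r = 0.85) and DNAJB1 (r = 0.90). DEDD2 was the nearest to HSPA1B (r = 0.88), CHORDC1, an HSP90-binding protein gene, to HSPH1 (r = 0.88) and GIT1 to BAG3 (r = 0.83). JMJD6, DEDD2 and CHORDC1 also varied with set and replicate number, at 51.4%, 54.6% and 67.8% of their within-group variance, whereas GIT1 did not, at 13.2%. TUBB4B, a tubulin gene, was nearest to HSP90AA1 (r = 0.98), RRP12 to HSPD1 (r = 0.98), SNRPD1 to HSPE1 (r = 0.96) and TRAPPC1 to HSPB1 (r = 0.93). Wortmannin stood apart for HSP90AA1, HSPD1 and HSPE1, and r without that group was not computed for their nearest genes. The Spearman rho of those pairs, which uses ranks, was 0.95, 0.81 and 0.89.

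Other chaperone genes, 74 tested genes in 5 lists, were read beside the members. Under Wortmannin 45 of them fell and 4 rose, where 19.4% of all genes fell and 18% rose. The cytosolic chaperonin CCT and its partner prefoldin, which fold actin and tubulin, fell in 13 of 14 genes, with a median of −0.32 over the list against 0.01 over all genes. CCT5 was at 337 ± 1.86 CPM (SD, n = 3) against 480 ± 2.47 CPM in Vehicle, a fall of 0.51 ± 0.031, and CCT7 fell by the same 0.51 ± 0.031.

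The mitochondrial chaperones and proteases, to which HSPD1 and HSPE1 are closest, fell in 11 of 15 genes and rose in 1 (median −0.21). TIMM44, which tethers the import motor to the inner membrane, fell by 0.59 ± 0.055, GRPEL1, the nucleotide exchange factor of mitochondrial HSP70, fell by 0.39 ± 0.050, and SPG7, a protease subunit, rose by 0.12 ± 0.039. Co-chaperones of HSP70 and HSP90 fell in 11 of 18 and rose in 1 (median −0.15). Their largest falls were FKBP4 (−0.43 ± 0.031) and TTC4 (−0.39 ± 0.051), and BAG1 rose by 0.28 ± 0.064.

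The other HSF1-inducible and cytosolic chaperones fell in 9 of 23 and rose in 1 (median −0.07). HSP90AB1, the constitutive partner of HSP90AA1, was at 1602 ± 16.9 CPM against 2067 ± 70.6 CPM in Vehicle and fell by 0.37 ± 0.031, CRYAB fell by 0.42 ± 0.14, and HSPA2 rose by 0.36 ± 0.047. Of 4 heat shock factors and regulators, HSF1 itself fell by 0.18 ± 0.040, from 89.7 ± 1.64 to 79.4 ± 3.63 CPM, and HSF4 rose by 0.83 ± 0.16, from 3.82 ± 0.692 to 6.74 ± 0.271 CPM.

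In Polygalae 500, 18 of the 74 passed, 7 as rises and 11 as falls, near the 19.9% of all genes. CDC37, which loads kinases onto HSP90, fell by 0.23 ± 0.043, HSPA2 by 0.24 ± 0.050, DNAJB2 by 0.20 ± 0.055, TRAP1 by 0.15 ± 0.038, CCT7 by 0.13 ± 0.031, CCT8 by 0.11 ± 0.033 and FKBP4 by 0.09 ± 0.031. HSPB8 (0.26 ± 0.088), BAG1 (0.20 ± 0.066), LONP1 (0.18 ± 0.044), AFG3L2 (0.16 ± 0.040) and BAG2 (0.16 ± 0.040) rose. In Aucklandiae 500, 5 of 74 passed, against 4.93% of all genes: CRYAB, GRPEL2 (−0.18 ± 0.056), CDC37 (−0.16 ± 0.042) and ST13 (−0.11 ± 0.030) fell, and BAG2 rose by 0.14 ± 0.039. In Schisandrae 20 and 100, where members rose, 0 of the 74 passed in each, where 0.196% and 1.4% of all genes did. The medians of the 5 lists were between 0.02 and 0.10 there.

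CRYAB, which encodes alpha-B crystallin, a small heat shock protein related to HSPB1, differed between extracts that share a library set. It was at 2.05, 1.95 and 3.07 CPM in Aucklandiae 500 and at 8.07, 7.18 and 5.58 CPM in Polygalae 500, without overlap, against 4.69, 5.75 and 4.66 CPM in Vehicle. It fell by 1.11 ± 0.15 in the first (adjusted p = 9.34e-07) and rose by 0.47 ± 0.13 in the second (adjusted p = 0.00709). Polygalae 500 minus Aucklandiae 500 was 1.58 ± 0.15 (adjusted p = 8.93e-13), while the same contrast for HSPB1 was −0.16 ± 0.070 (adjusted p = 0.145).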

How the data were processed

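The authors deposited expected counts (RSEM estimates per gene that need not be whole, not scaled for depth) of 60 libraries. Per the submitters' processing notes the build was GRCh38, and the tools were RSEM 1.3.3, STAR 2.7.3a, Trim Galore 0.6.5 and FastQC 0.11.9. The labels give a strand-specific kit with paired reads. The strand setting and annotation release were not given in the sources used here. Of the values, 10.7% were not whole, and all were rounded. Symbols came from the reference gene table for 56558 of 60675 genes and from GENCODE 29 for 497.

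The text uses edgeR 4.0.16 with limma 3.58.1 in R 4.3.3: filterByExpr, TMM, a robust quasi-likelihood fit of 60 libraries with 1 mean per group, two-sided tests, with p-values of a comparison adjusted over its 17368 genes by Benjamini and Hochberg. Slopes used the 9 libraries of an extract. Levels are CPM with TMM-scaled depth, except those of cell type markers, which use unscaled totals. Single log2 values use a prior count of 2, errors of log2 values are SE, and folds are the model's. DESeq2 1.42.0 was an alternative. The steps were tested on simulated counts. No pair of replicates agreed within sampling noise (chi-square per degree of freedom 2.03 to 25.3).

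The members and lists were chosen with earlier results of these data known. Of the 5 other lists, the text names the 2 largest rises and falls past the threshold in Wortmannin, Polygalae 500 and Aucklandiae 500, and for each member the nearest gene by group mean correlation; HSPB11 had no match. CRYAB was followed further after its values were seen.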

Additional observations from a re-analysis of the deposited data

How the results depend on the processing

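Of 3542 member values recomputed under another setting, 3446 kept their side of the threshold, 61 passed only there and 35 no longer passed, and none that passed in either setting changed sign. The 3 Wortmannin falls and the HSPB1 fall of Polygalae 500 passed in every setting tried.

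The number of members that passed moved as follows. Without any filter on low counts it was 6 for Wortmannin, 3, 2 and 1 for Liriopis 20, 100 and 500, 6, 4 and 3 for Schisandrae 20, 100 and 500, 2 and 1 for Polygalae 20 and 100, 2, 1 and 3 for Aucklandiae 20, 100 and 500, 3 for Schisandrae minus Liriopis and 1 for Polygalae minus Aucklandiae; the cause was not tested. With only the 6 libraries of a comparison it was 6 for Wortmannin, 1 for Liriopis 20, 1 and 2 for Schisandrae 100 and 500, 1 for Zizyphi 500, 0 and 1 for Polygalae 20 and 100, 3 for Aucklandiae 500, 1 for Zizyphi minus Longan and 1 for Polygalae minus Aucklandiae, from a spread estimated on fewer libraries. DESeq2 called 2 in Schisandrae 500, 4 in Schisandrae 20 and 3 in Polygalae 500, the summed HSP70 gene left 1 in Schisandrae 100, and a slope from all 60 libraries called 1 in Polygalae (HSPB1, −0.13, adjusted p = 0.00555). With 1 library left out it ran from 0 to 4 for Schisandrae 20, 0 to 2 for Schisandrae 100, 1 to 2 for Polygalae 500, 0 to 1 for Polygalae 20 and for Aucklandiae 20, and 3 to 4 for Wortmannin.

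The replicate numbers did not pair the libraries over all genes: deviations of same-numbered libraries had correlations of −0.113 to 0.183. With the replicate number as a block, 5 members passed in Wortmannin (HSPA1A at 0.28 and HSPH1 at −0.11 added), 4 in Schisandrae 20 (HSPA1A added, 0.51, adjusted p = 0.0347), 3 in Polygalae 500 (HSPA1B added, 0.30, adjusted p = 0.0399), 1 in Schisandrae 500 (HSPA1B, 0.45), 1 slope in Aucklandiae (HSPA1A, 0.07, adjusted p = 0.00893) and 1 in Liriopis (HSPA1B, −0.12, adjusted p = 0.0180). With a block for each number within a set, chosen after seeing the data, 2 members passed in Schisandrae minus Liriopis, HSPA1A at 0.24 (adjusted p = 0.000141) and HSPA1B at 0.29 (adjusted p = 8.87e-05).

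The count of all genes that passed varied by more than 1.5 times over the settings (main count, lowest to highest) against Vehicle: 15 (0 to 282), 1 (0 to 225), 1 (0 to 185) for Liriopis 20, 100, 500, 34 (0 to 272), 244 (0 to 882), 83 (18 to 217) for Schisandrae 20, 100, 500, 3 (0 to 509), 23 (1 to 524), 18 (3 to 480) for Longan 20, 100, 500, 63 (0 to 315), 104 (3 to 444), 315 (121 to 926) for Zizyphi 20, 100, 500, 2106 (3 to 3368) for Polygalae 20, 520 (101 to 1111), 355 (94 to 926), 857 (421 to 1721) for Aucklandiae 20, 100, 500. It did so for the slopes too, 8 (0 to 129) for Liriopis, 7 (0 to 62) for Schisandrae, 6 (0 to 42) for Longan, 61 (22 to 149) for Zizyphi, 873 (496 to 2990) for Polygalae, 168 (76 to 306) for Aucklandiae, and for 56 (7 to 216) genes in Schisandrae minus Liriopis and 37 (14 to 151) in Zizyphi minus Longan.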
